A study of Mus musculus with 6 samples.

Results

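The genes of mitosis and of the kinetochore, 47 in number, were followed in bone marrow stem and progenitor cells of p65 knockout mice. They were chosen by name, for their roles in building the spindle, attaching and separating chromosomes and dividing the cell. The choice was made with earlier results of these data known. Of the 47, 46 had a row with a single gene symbol among the 19938 genes of the array table, and Ccnb1, the cyclin B1 gene, was not analysed here. The groups were p65 knockout (p65 KO, 3 arrays) and p65 wild-type (p65 WT, 3 arrays). The sample titles do not say whether each array stands for a separate mouse. The series title places the deletion in the hematopoietic compartment. The promoter that drives it, the strain and the age of the mice are not given in the sources used here, and no treatment is labelled in either group. The sort took bone marrow cells that carry c-kit and Sca-1 but lack Flk2 and the lineage markers, a population rich in stem cells and early progenitors. The values are log2 signals, in which a difference of 1 is a 2-fold difference. The deleted gene, Rela, had 7.33, 7.48 and 7.35 in knockout cells, against 7.52, 7.89 and 7.92 in wild-type cells, with no overlap (log2 fold change -0.39, limma adjusted p = 0.209, and 0.04 without p65 WT replicate 1). Of all genes, 15.4% had every knockout value below every wild-type value. In the brightest tertile of all genes by mean signal, where Rela lay, 142 of 6646 did. Probes outside a deleted part can keep their signal, and the Rela difference did not pass with all arrays. The Rela values are therefore a limited check of the labels.

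Most hematopoietic stem cells rest outside the cell cycle, and they express the mitotic program when they or their progeny divide. In dividing cells, cyclin-dependent kinase 1 with cyclins A and B starts mitosis, the kinetochore ties each chromosome to the spindle, and the spindle checkpoint holds back chromosome separation until all are attached. The anaphase-promoting complex then marks securin and cyclin B for destruction, and the cell is cut between the daughter nuclei. Many of these genes are switched on together late in the cycle by a group of proteins that binds a promoter element called CHR, with the factor NF-Y bound nearby and FoxM1 joining later.

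All 46 measured genes had a higher mean in knockout than in wild-type cells, with log2 fold changes of 0.36 (Cdc25b) to 1.38 (Hmmr) and a median of 0.79, while the median over all genes was -0.04. In the limma fit over all genes, 6 of the 46 rose at an adjusted p under 0.05 and 0 fell, where 0.687% of all genes were called higher and 0.13% lower. The 6 were Bub1, Aurkb, Birc5, Ccnb2, Cenpa and Ect2. At an unadjusted p under 0.05, 44 of the 46 were higher and 0 lower, against 13.8% and 7.76% of all genes and 31.4% higher in the brightest tertile by mean signal. In 43 of the 46 every knockout value lay above every wild-type value, a pattern that 19.2% of all genes showed. For a single gene such a separation gives p = 0.1 in a two-sided exact permutation test, the smallest value that 3 arrays against 3 allow. More RNA per cell and more cells in division cannot be told apart in these bulk samples.

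The number of genes called depended on which arrays entered the fit and on the normalization. Without p65 WT replicate 1, 27 of the 46 rose (3.28% of all genes were called higher), and with the replicate number as a block 17 rose (1.41% of all genes). In the brightest tertile of all genes by mean signal these shares were 7.52% and 2.75%. Those 17 were all among the 27, and they were Ccna2, Ccnb2, Cks2, Cdc25c, Tpx2, Plk1, Aurkb, Birc5, Incenp, Bub1, Cenpa, Ndc80, Nuf2, Kif11, Hmmr, Ect2 and Ncapg. Without p65 WT replicate 2 the count was 2, in a fit that called 65 of all 19938 genes higher and 10 lower. Without p65 WT replicate 3 or any of the knockout arrays it was 0, in fits that called 21 to 29 of all genes. After cyclic loess normalization, which removes differences that follow signal level, 3 of the 46 rose (0.772% of all genes, 0.492% lower), namely Cdc25c, Bub1 and Hmmr. Bub1 alone rose after quantile normalization (0.386% of all genes higher, 0.191% lower), and 36 rose with array weights (5.6% higher, 2.42% lower). A log2 fold change above 0 was found in 45.9% of all genes with all arrays, 45.3% without p65 WT replicate 1 and 44.9% with array weights. It was found in 48.7% after cyclic loess, 49.4% after quantile normalization and 49.4% after cyclic loess without p65 WT replicate 1, against all 46 mitotic genes in each of these fits. In the brightest tertile of all genes, which held 40 of the 46, the share above 0 was 86.7% with all arrays, 70.2% without p65 WT replicate 1 and 50.8% after cyclic loess. In all, 137 genes were higher and 26 lower on the deposited values, against 154 and 98 after cyclic loess, 77 and 38 after quantile normalization, and 288 and 26 with arrays centred on their medians. The 46 genes themselves gave no lower call under any of the 16 alternatives.

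**Figure D1:**
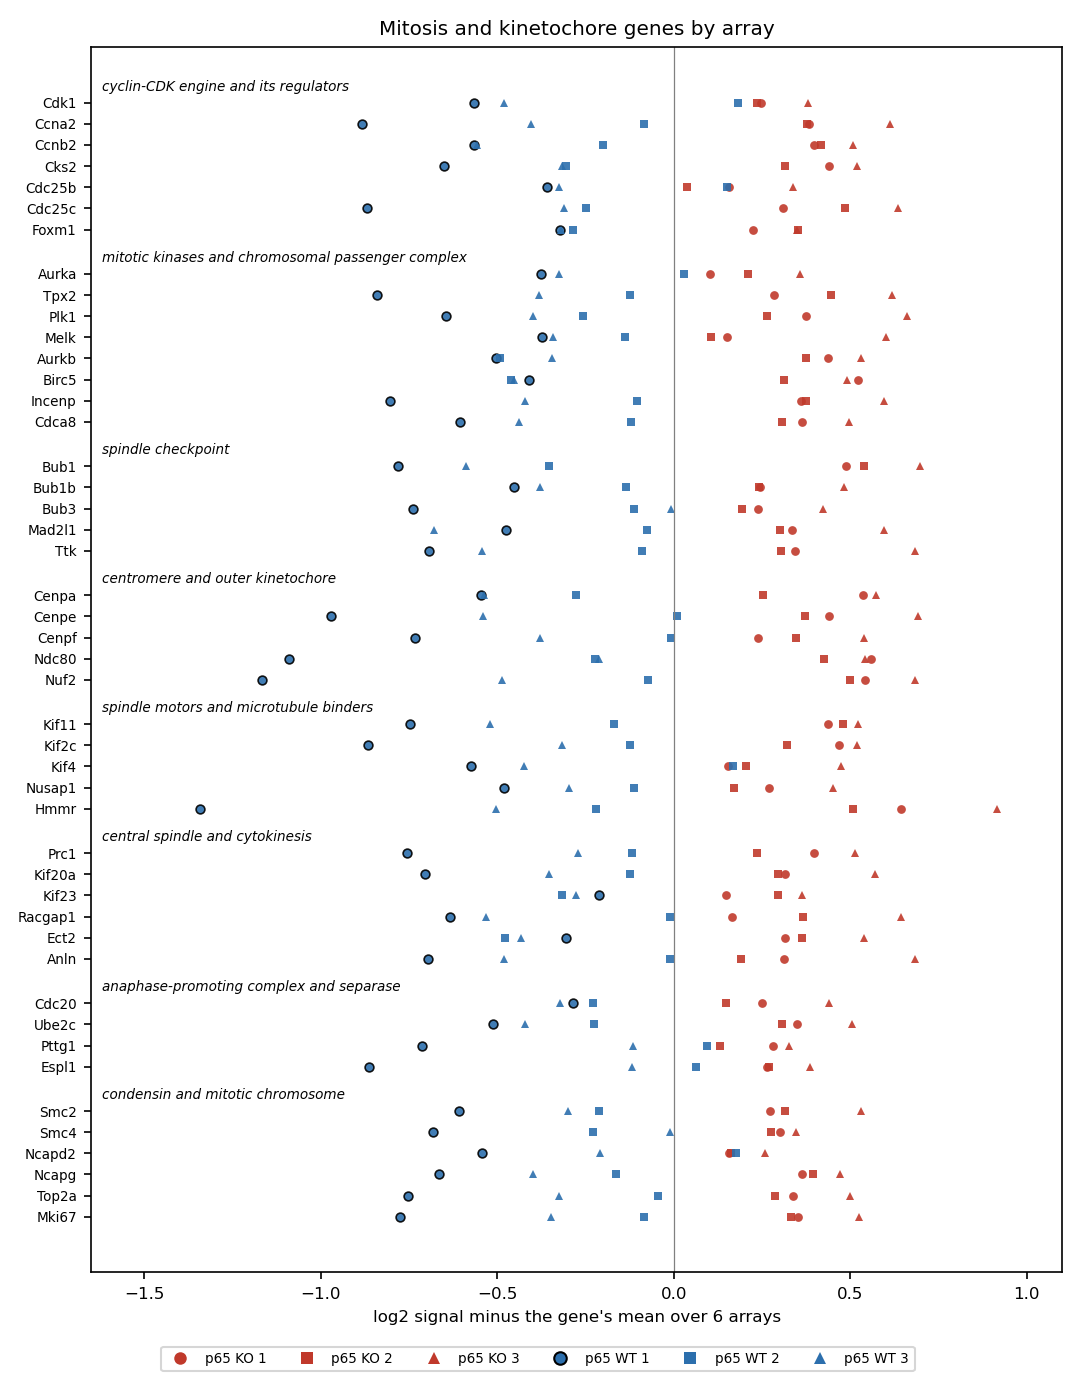
Log2 signal of each of the 46 genes on each array, minus that gene's mean over the 6 arrays, with p65 KO arrays in red and p65 WT arrays in blue, grouped by role. Knockout points lie to the right of all wild-type points in 43 of the 46 genes, p65 KO replicate 3 is most often farthest right, and p65 WT replicate 1 (black rim) is most often farthest left.

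Within each genotype the arrays kept a steady order over the list. Averaged over the 46 genes, each centred on its mean over all arrays, the knockout arrays stood at 0.33, 0.31 and 0.52 on the log2 scale and the wild-type arrays at -0.66, -0.13 and -0.37. Among the knockouts, replicate 3 had the highest value in 43 of the 46 genes, against 42.1% of the brightest tertile of all genes, where 40 of the 46 lay. Among the wild types, replicate 2 was highest in 39 genes, against 49.8% of that tertile. Replicate 1 was the lowest wild type in 41, a share near the 88.8% of that tertile. The lowest of the knockout means therefore lay above the highest of the wild-type means, and the wild-type arrays differed more among themselves (SD 0.26, n = 3) than the knockout arrays (SD 0.12, n = 3).

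Signal range moved with the same contrast. The SD of log2 signal over all genes was 2.02, 2.06 and 2.07 on the knockout arrays and 1.64, 1.95 and 1.95 on the wild-type arrays. The compressed array, p65 WT replicate 1, correlated with the others at r = 0.951 to 0.963, and limma gave it a weight of 0.116. Fold changes followed signal level across genes (Spearman's rho 0.634, and 0.372 without p65 WT replicate 1). Their median was 0.30 in the brightest tertile of all genes, where 40 of the 46 mitotic genes lay, -0.09 in the middle tertile, which held the other 6, and -0.22 in the dimmest. All 46 had a fold change above the 0.30 of the brightest tertile. In that tertile 1.26% of genes were called higher and 43.9% had every knockout value above every wild-type value, against 0.767% and 12.6% in the middle one. Without p65 WT replicate 1 the median of the 46 was 0.66, against 0.13 in the brightest tertile, and after cyclic loess normalization it was 0.52, against 0.01.

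**Figure D2:**
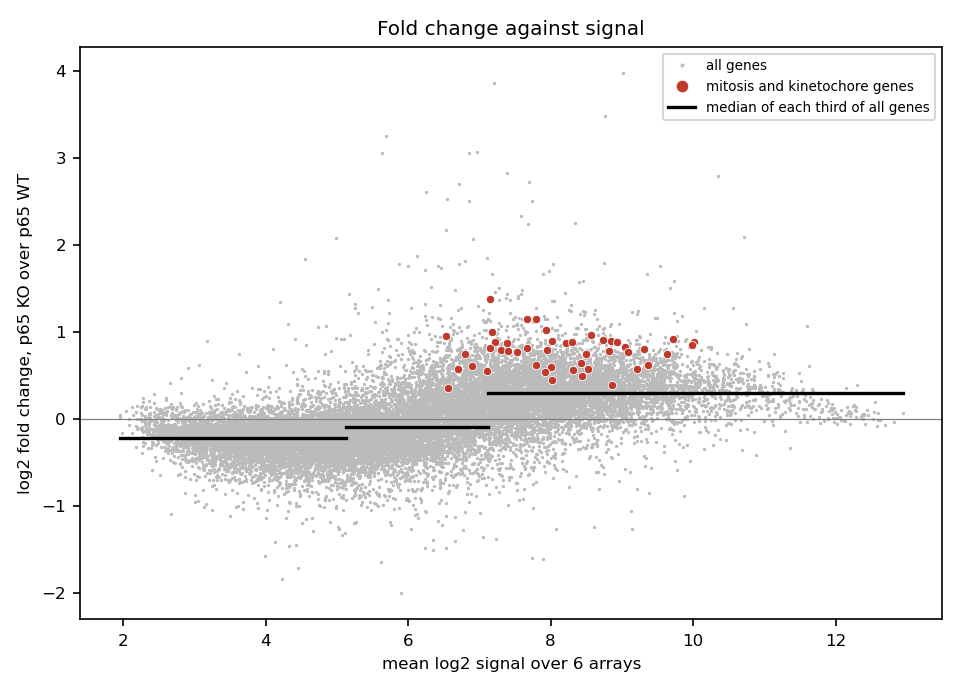
Log2 fold change of knockout over wild-type against mean log2 signal for all 19938 genes (grey) and the 46 mitotic genes (red), with the median fold change of each tertile of all genes as a black line. The medians run from -0.22 through -0.09 to 0.30, and the 46 genes lie above the line of the brightest tertile.

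**Figure D3:**
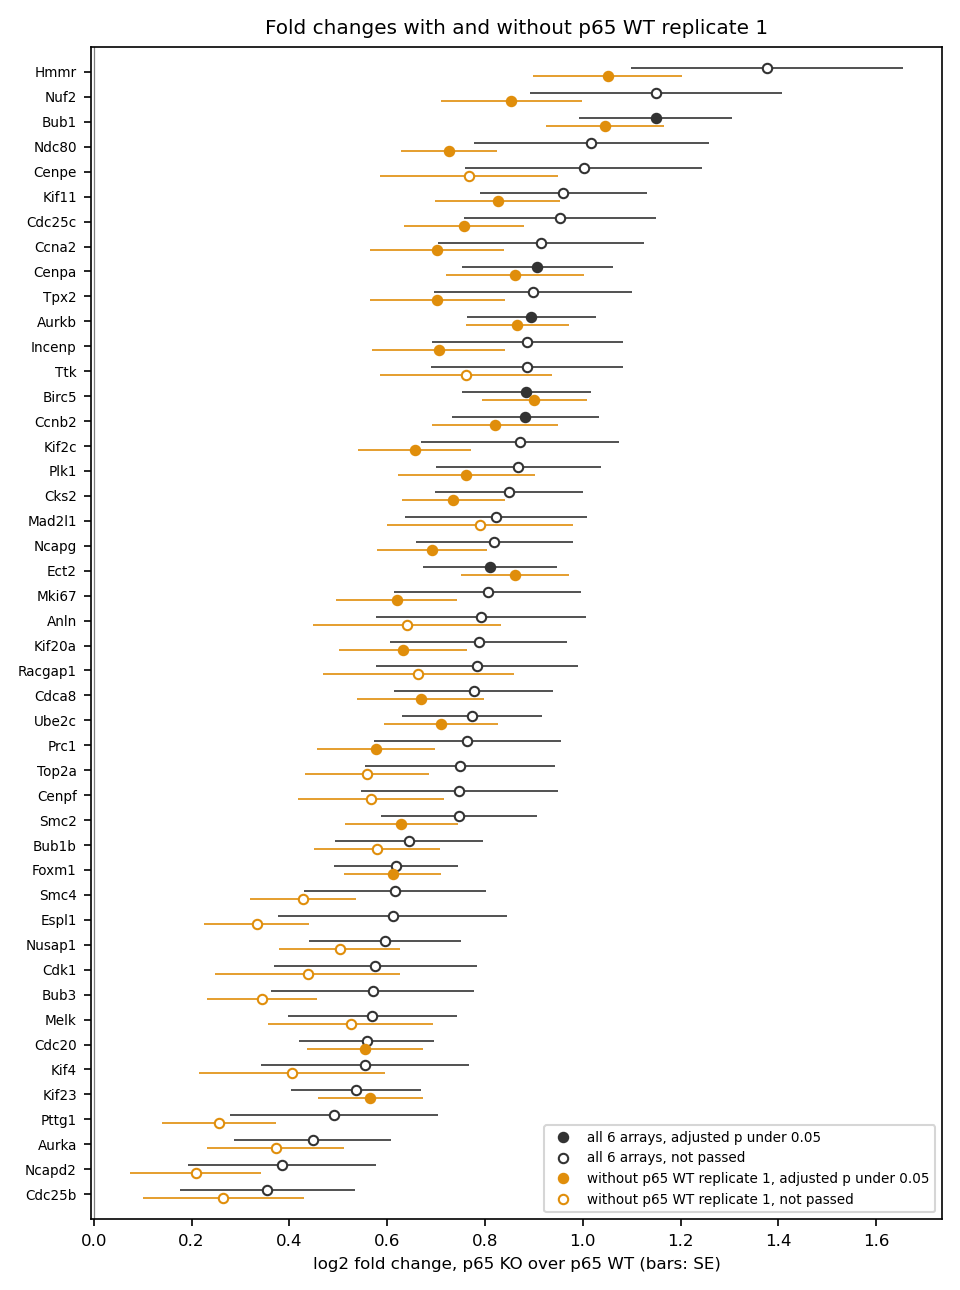
Log2 fold change of each of the 46 genes with all 6 arrays (dark) and without p65 WT replicate 1 (orange); bars are SE, and filled points passed an adjusted p under 0.05. Without that array 43 of the 46 fold changes were smaller, and 27 points are filled in place of 6.

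The promoters of the genes that rose are shown because all 46 means were higher in knockout cells and these genes passed the test. RefSeq promoter windows of GRCm38.p6, from 250 bases before to 50 bases after an annotated start, were found for 39 of the 47 genes (42 windows). Windows of 5 of the 6 genes follow on the strand of the gene, and none was held for Aurkb. Capitals mark CHR (TTTGAA or its complement TTCAAA), the NF-Y motif (CCAAT or its complement ATTGG) and, in Birc5 alone, the NF-κB consensus.
Bub1 (chr2:127831810-127832109, minus strand): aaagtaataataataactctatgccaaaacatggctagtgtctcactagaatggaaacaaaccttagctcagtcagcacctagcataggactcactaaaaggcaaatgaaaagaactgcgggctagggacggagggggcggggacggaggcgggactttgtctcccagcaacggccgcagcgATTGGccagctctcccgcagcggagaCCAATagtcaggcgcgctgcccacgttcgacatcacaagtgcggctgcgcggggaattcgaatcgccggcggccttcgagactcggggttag
Ccnb2 (chr9:70421505-70421804, minus strand): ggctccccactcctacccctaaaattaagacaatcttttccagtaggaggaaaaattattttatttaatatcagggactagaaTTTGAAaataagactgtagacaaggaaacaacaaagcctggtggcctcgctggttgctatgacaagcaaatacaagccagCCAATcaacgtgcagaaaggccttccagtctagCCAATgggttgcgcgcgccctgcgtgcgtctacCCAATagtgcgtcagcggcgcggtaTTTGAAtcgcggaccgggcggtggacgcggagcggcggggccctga
Cenpa (chr5:30666636-30666935, plus strand): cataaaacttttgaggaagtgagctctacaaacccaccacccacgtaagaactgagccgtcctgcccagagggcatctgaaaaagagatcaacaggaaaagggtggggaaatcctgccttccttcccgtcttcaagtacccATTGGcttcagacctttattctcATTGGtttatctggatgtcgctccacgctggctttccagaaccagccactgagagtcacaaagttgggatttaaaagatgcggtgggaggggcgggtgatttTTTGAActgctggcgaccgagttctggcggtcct
Ect2 (chr3:27153805-27154104, minus strand): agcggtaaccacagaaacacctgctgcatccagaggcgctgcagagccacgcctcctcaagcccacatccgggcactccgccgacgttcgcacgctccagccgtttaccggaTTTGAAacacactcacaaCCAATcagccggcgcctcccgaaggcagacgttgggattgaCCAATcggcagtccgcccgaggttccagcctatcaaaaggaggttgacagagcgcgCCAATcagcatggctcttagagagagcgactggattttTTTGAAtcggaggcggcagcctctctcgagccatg
Birc5 (chr11:117848987-117849286, plus strand): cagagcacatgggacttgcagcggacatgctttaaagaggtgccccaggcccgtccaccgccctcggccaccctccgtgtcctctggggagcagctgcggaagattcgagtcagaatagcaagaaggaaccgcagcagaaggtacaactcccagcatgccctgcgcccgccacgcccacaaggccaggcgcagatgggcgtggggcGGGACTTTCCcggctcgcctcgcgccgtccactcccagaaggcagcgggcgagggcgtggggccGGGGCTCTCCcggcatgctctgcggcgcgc

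Ccnb2, Cenpa and Ect2 each held a CHR match close to the start, at 4, 16 and 15 bases after it, with NF-Y motifs upstream. In Ccnb2 these motifs lay at -87, -54 and -21 bases, and in Ect2 at -120, -79 and -23. The window of Bub1 held NF-Y motifs at -68 and -42 and no CHR match. Birc5 held neither element in this window and 2 matches to the NF-κB consensus, at -44 and 20 bases from the start.

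Across the list the CHR element was common. It was found in 31 of 42 windows (73.8%), against 17.9% of all 32851 promoter windows of that length, and within 50 bases of the start in 27 (64.3%), against 4.94%. The NF-Y motif was in 78.6% of the list's windows and 37.4% of all, and both together in 66.7% and 6.95%. Matches to the NF-κB consensus, searched on both strands, were in 3 of 42 windows (7.14%; 4.51% of all), those of Birc5, Kif23 and Ncapd2. CHR and NF-Y matches can share a base, and matches on either strand at 1 position were counted once. The median log2 fold change was 0.78 in 28 measured genes with CHR in the window and 0.84 in 10 without it, a difference that was not tested. A match describes the letters of the window and no binding was measured.

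**Figure D4:**
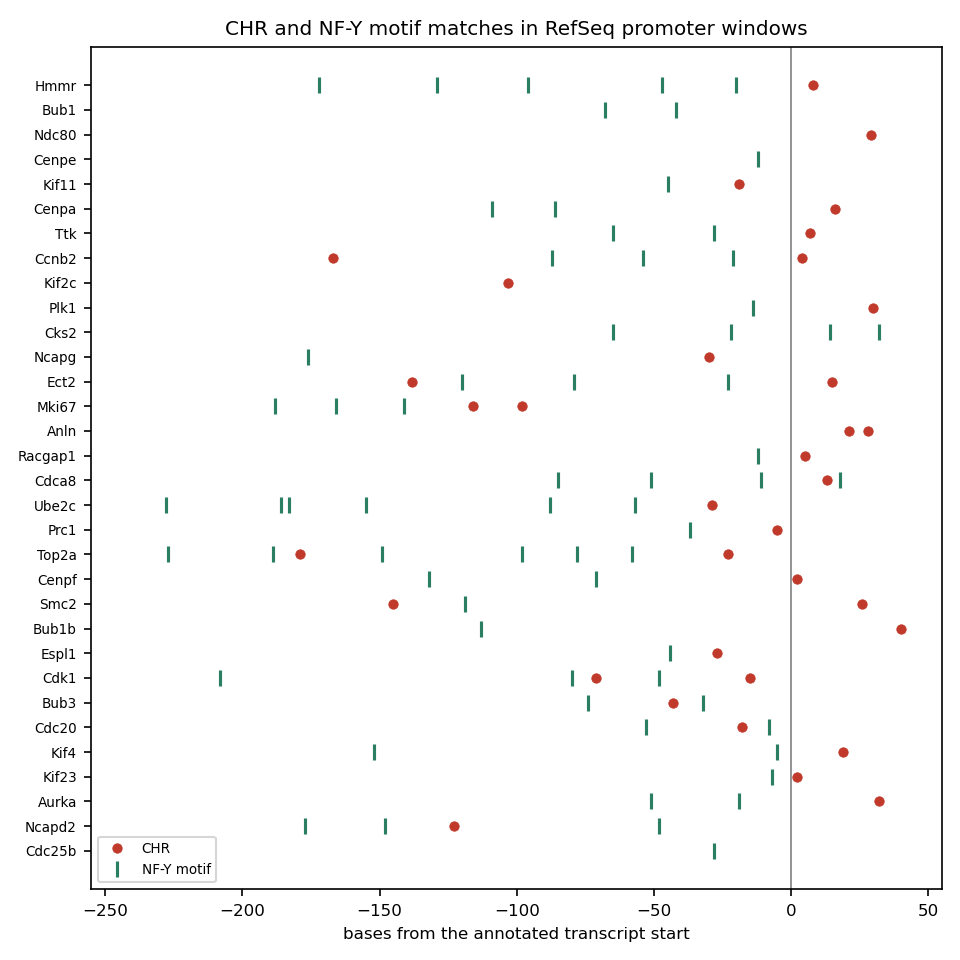
Positions of CHR (red points) and NF-Y motif (green ticks) matches in RefSeq promoter windows, in bases from the annotated start, for the measured genes with a match (1 window per gene), ordered by fold change with the largest at the top. Most CHR points sit within 50 bases of the start and the NF-Y ticks mostly upstream of them, from the top of the plot to the bottom.

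The engine of mitotic entry was represented by 7 measured genes. Ccnb2, which encodes cyclin B2, an activating partner of Cdk1, rose to 10.41, 10.43 and 10.52 in knockout cells, against 9.44, 9.81 and 9.45 in wild-type cells, a 1.84-fold difference (log2 fold change 0.88, SE 0.15, adjusted p = 0.0476). Every knockout value lay above the wild-type range, and replicate 2 was the highest wild type. The other 6 did not pass with all arrays. Ccna2, the cyclin A2 gene, had 10.10, 10.09 and 10.33 in knockout cells, against 8.83, 9.63 and 9.31 in wild-type cells, and Cks2, a small subunit of Cdk complexes, had 10.43, 10.30 and 10.51 in knockout cells, against 9.34, 9.68 and 9.67 in wild-type cells. The groups did not overlap in either gene. Cks2 had a log2 fold change of 0.85 (adjusted p = 0.0531), and its 2 other rows gave 0.86 and 0.83. Cdc25c, a phosphatase that activates Cdk1, had the largest fold change of this group at 0.95 (SE 0.20), with 6.84, 7.02 and 7.17 in knockout cells, against 5.66, 6.29 and 6.22 in wild-type cells. Foxm1, the transcription factor gene, had 8.03, 8.15 and 8.15 in knockout cells, against 7.48, 7.52 and 7.48 in wild-type cells, with little spread within either genotype. These 4 genes, Ccna2, Cks2, Cdc25c and Foxm1, passed without p65 WT replicate 1, with adjusted p of 0.0402, 0.0214, 0.0276 and 0.0276. Cdk1 itself had a log2 fold change of 0.58 (adjusted p = 0.178, and 0.215 without that array). Cdc25b, a second phosphatase of the family, was the least different gene of the list. It had 6.72, 6.60 and 6.90 in knockout cells, against 6.20, 6.71 and 6.24 in wild-type cells, so wild-type replicate 2 lay within the knockout range.

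Among mitotic kinases and the chromosomal passenger complex, which corrects faulty attachments and guides cytokinesis, 2 of 8 genes rose. Aurkb, the kinase of the complex, had 9.29, 9.23 and 9.38 in knockout cells, against 8.35, 8.36 and 8.50 in wild-type cells (log2 fold change 0.90, SE 0.13, adjusted p = 0.0346). Birc5, which encodes survivin, the subunit that brings the complex to centromeres, had 9.45, 9.24 and 9.42 in knockout cells, against 8.52, 8.46 and 8.47 in wild-type cells (log2 fold change 0.88, adjusted p = 0.0346). In both, the wild-type arrays were close together, p65 WT replicate 1 included, and leaving that array out changed the log2 fold change only to 0.87 and 0.90. After cyclic loess normalization Aurkb and Birc5 had log2 fold changes of 0.55 and 0.54 and no longer passed (adjusted p = 0.117 and 0.166). The other subunit genes differed less tightly. Incenp, the scaffold of the complex, had 8.66, 8.67 and 8.89 in knockout cells, against 7.49, 8.19 and 7.88 in wild-type cells, and Cdca8, the borealin gene, had 9.18, 9.12 and 9.31 in knockout cells, against 8.21, 8.69 and 8.38 in wild-type cells. Wild-type values of both ran over a wider range than the knockout values. Plk1, the Polo kinase of mitotic entry and spindle assembly, had 8.59, 8.48 and 8.88 in knockout cells, against 7.57, 7.96 and 7.82 in wild-type cells. Tpx2, the spindle factor that activates Aurora A, had 8.30, 8.46 and 8.63 in knockout cells, against 7.17, 7.89 and 7.63 in wild-type cells and the largest fold change of the group (0.90, SE 0.20, adjusted p = 0.0836). Incenp, Cdca8, Plk1 and Tpx2 did not overlap between genotypes and passed when p65 WT replicate 1 was left out, not with all arrays (adjusted p from 0.0356 to 0.0406). Aurka, the Aurora A kinase gene, had the smallest fold change here (0.45, adjusted p = 0.177), with 8.12, 8.23 and 8.38 in knockout cells, against 7.64, 8.05 and 7.70 in wild-type cells. Its lowest knockout value exceeded the highest wild-type value by 0.07. Melk, a kinase gene expressed in dividing cells, had a fold change of 0.57 on the log2 scale (adjusted p = 0.139).

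Of the 5 spindle checkpoint genes, Bub1 rose and 4 did not pass. Bub1, the kinase that builds the checkpoint on kinetochores, averaged 8.24 ± 0.11 in knockout and 7.09 ± 0.21 in wild-type cells (SD, n = 3 each), with single values of 8.15, 8.21 and 8.36 in knockout cells, against 6.89, 7.31 and 7.08 in wild-type cells. The difference was 2.22-fold (log2 fold change 1.15, SE 0.16, adjusted p = 0.0248), and the gap between the groups, 0.84, was the widest of the 46 genes. Bub1 also passed in 12 of the 16 alternatives, with cyclic loess (0.89, adjusted p = 0.0217) and without p65 WT replicate 1 (1.05, adjusted p = 0.0138) among them. Over all 16 its adjusted p ran from 0.0019 to 0.171, and it did not pass without p65 KO replicate 1, 2 or 3 or without p65 WT replicate 3. Its relative Bub1b, the BubR1 gene, had a log2 fold change of 0.65 (adjusted p = 0.087). Mad2l1, the Mad2 gene whose product inhibits Cdc20, had 0.82 and Ttk, the Mps1 kinase gene, 0.89 (adjusted p = 0.084 and 0.0808). Bub3, whose product brings Bub1 and BubR1 to kinetochores, was the least different, with 8.77, 8.72 and 8.95 in knockout cells, against 7.79, 8.42 and 8.52 in wild-type cells. The wild-type values of Bub3 were spread by p65 WT replicate 1, and without it the log2 fold change was 0.34 in place of 0.57.

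Genes of the centromere and outer kinetochore had the largest median log2 fold change of the 8 role groups, 1.00, but also wide wild-type values. Cenpa, the histone H3 variant that marks centromeres, rose, with 9.27, 8.99 and 9.31 in knockout cells, against 8.19, 8.46 and 8.20 in wild-type cells (log2 fold change 0.91, SE 0.15, adjusted p = 0.0476). Its groups were separated by 0.53. Ndc80 and Nuf2 encode partners in the complex that grips microtubule ends. Ndc80 had 8.49, 8.35 and 8.47 in knockout cells, against 6.84, 7.70 and 7.72 in wild-type cells, and Nuf2 had 8.33, 8.29 and 8.48 in knockout cells, against 6.63, 7.72 and 7.31 in wild-type cells. In both, p65 WT replicate 1 stood far below the other wild types, so that the log2 fold change was 0.73 without it and 1.02 with it for Ndc80, and 0.85 and 1.15 for Nuf2. Both passed without that array (adjusted p = 0.0186 and 0.0296) and not with it (adjusted p = 0.0893 and 0.0821). Cenpe, a kinetochore motor gene, had a log2 fold change of 1.00 (adjusted p = 0.0934). Cenpf, a large kinetochore protein gene, differed least in this group, with 7.03, 7.14 and 7.34 in knockout cells, against 6.06, 6.79 and 6.42 in wild-type cells (log2 fold change 0.75, adjusted p = 0.115).

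None of the 5 spindle motor and microtubule-binding genes passed with all arrays, although all 5 had an unadjusted limma p under 0.05. Hmmr, the gene of a spindle protein also known as a hyaluronan receptor, had the largest fold change of the 46 (1.38, SE 0.28, adjusted p = 0.0683). Its values were 7.79, 7.66 and 8.06 in knockout cells, against 5.81, 6.93 and 6.64 in wild-type cells, with p65 WT replicate 1 more than 0.8 below the others, and it passed without that array (1.05, adjusted p = 0.0223) and after cyclic loess normalization (1.19, adjusted p = 0.042). Kif11, the Eg5 motor that pushes spindle poles apart, had 9.0, 9.05 and 9.09 in knockout cells, against 7.82, 8.40 and 8.04 in wild-type cells (log2 fold change 0.96, adjusted p = 0.0531). Kif2c, which encodes the microtubule depolymerase MCAK, had 7.86, 7.71 and 7.91 in knockout cells, against 6.52, 7.27 and 7.08 in wild-type cells (log2 fold change 0.87). Kif11 and Kif2c passed without p65 WT replicate 1, at adjusted p of 0.0253 and 0.0318. Kif4, a chromosome-arm motor gene, had 7.26, 7.31 and 7.58 in knockout cells, against 6.53, 7.27 and 6.68 in wild-type cells, where wild-type replicate 2 reached into the knockout range. Nusap1, a microtubule-bundling protein gene, had a log2 fold change of 0.60 (adjusted p = 0.107).

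In the group of the central spindle and cytokinesis, Ect2 rose and 5 did not pass. Ect2 encodes the exchange factor that activates RhoA at the division plane and had 7.47, 7.51 and 7.69 in knockout cells, against 6.85, 6.68 and 6.72 in wild-type cells (log2 fold change 0.81, SE 0.14, adjusted p = 0.0476). Here p65 WT replicate 1 was the highest wild type, so the log2 fold change was larger without it, at 0.86. Kif23, a motor of the centralspindlin complex, was of the same kind, with 8.06, 8.21 and 8.28 in knockout cells, against 7.71, 7.60 and 7.64 in wild-type cells, and its log2 fold change was 0.54 with all arrays and 0.57 without that array. Prc1, which bundles the central spindle, had 7.93, 7.76 and 8.04 in knockout cells, against 6.77, 7.41 and 7.26 in wild-type cells. Kif20a, a motor that carries the passenger complex to the midzone, had 7.63, 7.60 and 7.88 in knockout cells, against 6.61, 7.19 and 6.96 in wild-type cells. Kif23, Prc1 and Kif20a did not overlap between genotypes and passed without p65 WT replicate 1, not with all arrays (adjusted p = 0.0383, 0.0462 and 0.0452). Racgap1, the partner of Kif23, and Anln, the anillin gene, had log2 fold changes of 0.78 and 0.79 (adjusted p = 0.11 and 0.116).

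The exit from mitosis was represented by 4 genes, none past the threshold with all arrays, and their median log2 fold change of 0.58 was the lowest of the 8 groups. Ube2c, the ubiquitin-conjugating enzyme of the anaphase-promoting complex, had 9.43, 9.39 and 9.59 in knockout cells, against 8.57, 8.85 and 8.66 in wild-type cells (log2 fold change 0.77, adjusted p = 0.0565). Cdc20, the activator of the complex, had 8.56, 8.46 and 8.75 in knockout cells, against 8.03, 8.08 and 7.99 in wild-type cells (log2 fold change 0.56, adjusted p = 0.0974). The wild-type values of Cdc20 lay within 0.1 of each other. Ube2c and Cdc20 passed without p65 WT replicate 1 (adjusted p = 0.028 and 0.0493). Pttg1, the securin gene, had 8.72, 8.57 and 8.77 in knockout cells, against 7.73, 8.54 and 8.33 in wild-type cells, a separation of 0.04 between the groups, and its log2 fold change of 0.49 was 0.26 without p65 WT replicate 1. Espl1, the separase gene, had 0.61 (adjusted p = 0.196).

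Of the 6 genes of condensin and the mitotic chromosome, none passed with all arrays, while 5 had an unadjusted limma p under 0.05. Ncapg, a condensin I subunit gene, had 8.04, 8.07 and 8.14 in knockout cells, against 7.01, 7.51 and 7.27 in wild-type cells (log2 fold change 0.82, adjusted p = 0.0653). Smc2, a core ATPase of condensin, had 8.77, 8.81 and 9.03 in knockout cells, against 7.89, 8.29 and 8.20 in wild-type cells (log2 fold change 0.75). Mki67, the gene of the proliferation antigen Ki-67 that coats mitotic chromosomes, had 9.66, 9.65 and 9.84 in knockout cells, against 8.54, 9.23 and 8.96 in wild-type cells (log2 fold change 0.81, adjusted p = 0.0905). The groups were apart in all 3, and all 3 passed without p65 WT replicate 1 (adjusted p = 0.0276, 0.0361 and 0.0422). Ncapd2, another condensin I subunit gene, had 9.01, 9.02 and 9.12 in knockout cells, against 8.31, 9.03 and 8.65 in wild-type cells, with wild-type replicate 2 inside the knockout range, and after cyclic loess its log2 fold change was 0.04. Smc4, the partner ATPase of Smc2, had a log2 fold change of 0.62 (adjusted p = 0.137). Top2a, the topoisomerase that untangles sister chromatids, had 0.75 (adjusted p = 0.107), and a row for the same gene with weaker signal gave 0.50.

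Among further genes of mitosis 11 rose, and the median was positive. A list of further kinetochore, spindle, cohesin, anaphase-promoting complex and cytokinesis genes held 105 names, some of them older names of genes also listed. Of these, 97 were measured, of which 0 fell and 86 did not pass, beside the 0.687% of all genes called higher. At an unadjusted limma p under 0.05, 62 were higher and 0 lower. Their median log2 fold change was 0.57, and 95 of the 97 were above 0, a number that was 82 after cyclic loess normalization. Of the 97, 67 lay in the brightest tertile of all genes and 30 in the middle one. In the brightest tertile 86.7% of genes were above 0, or 50.8% after cyclic loess, and 31.4% were higher at that unadjusted p. Without p65 WT replicate 1, 29 rose, and with the replicate block 20 rose, where 3.28% and 1.41% of all genes were called higher. Cdca5, the sororin gene, which protects cohesion between sister chromatids, had 8.65, 8.84 and 8.68 in knockout cells, against 7.15, 7.59 and 7.39 in wild-type cells (log2 fold change 1.35, SE 0.16, adjusted p = 0.0131). Ska1 and Ska3, of the complex that follows shrinking microtubule ends, had log2 fold changes of 0.88 and 1.02, and Spdl1, a kinetochore adaptor of dynein, of 1.06. Cenpi and Cenpw, subunits of the inner kinetochore, had 0.88 and 0.95. Cep55, which acts at the final cut between daughter cells, had 1.16, with 7.0, 7.47 and 7.09 in knockout cells, against 6.15, 5.98 and 5.93 in wild-type cells. Arhgap11a, Depdc1a and Shcbp1 had log2 fold changes of 1.15, 1.28 and 0.94, and the adjusted p of these genes ran from 0.0131 to 0.0431. Windows with a CHR match made up 40.9% of this list's promoters.

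Genes of the preceding phase, DNA replication, also had higher means in knockout cells. Of 53 measured, 1 rose, 0 fell and 52 did not pass, while 9 rose without p65 WT replicate 1 and 3 with the replicate block. Of all genes, 0.687%, 3.28% and 1.41% were called higher in these 3 fits. All 53 log2 fold changes were above 0 on the deposited values and 41 after cyclic loess normalization, with medians of 0.51 and 0.21, and 32 were higher and 0 lower at an unadjusted limma p under 0.05. Of the 53, 49 lay in the brightest tertile, where 86.7% of genes were above 0 and 31.4% were higher at that unadjusted p. The member that rose was Rrm2, a ribonucleotide reductase subunit gene, with 9.13, 9.13 and 9.25 in knockout cells, against 7.81, 8.41 and 8.21 in wild-type cells (log2 fold change 1.03, adjusted p = 0.0476). A CHR match was found in 14.8% of the promoters of this list. The difference between this list and the mitotic genes was not tested.

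Other cell types were read through marker lists. Of all genes, 0.687% were called higher and 0.13% lower, while 13.8% were higher and 7.76% lower at an unadjusted limma p under 0.05. Of 14 granulocyte-monocyte progenitor markers 11 rose and 0 fell, with Elane at 11.03, 11.13 and 10.84 in knockout cells, against 6.58, 7.27 and 7.22 in wild-type cells and Mpo at 12.16, 12.17 and 12.07 in knockout cells, against 10.85, 11.23 and 11.11 in wild-type cells. The mean log2 signal over these 14 ran from 9.25 to 9.63 on the knockout arrays and from 7.29 to 7.51 on the wild-type arrays. Relative to each gene's own mean, the list stood at 1.02, 1.21 and 0.83 in knockout replicates 1, 2 and 3. In the same arrays the erythroid list stood at 0.54, -0.22 and 0.35 and the megakaryocyte list at -0.39, -0.15 and 0.09. The part of these cell types in the mitotic result was not tested. Of 10 erythroid markers none passed limma (4 higher and 1 lower at an unadjusted p under 0.05), with mean signals of 8.04 to 8.79 on knockout and 7.71 to 8.25 on wild-type arrays. Of 6 megakaryocyte markers none passed (0 higher and 2 lower unadjusted), with 8.28 to 8.76 on knockout and 8.34 to 9.07 on wild-type arrays. Without p65 WT replicate 1, Tfrc, the transferrin receptor gene of the erythroid list, rose (0.99, adjusted p = 0.0152), and Ppbp, a platelet chemokine gene, fell (-2.57, adjusted p = 0.00236). With all arrays their log2 fold changes were 1.45 and -1.61 (adjusted p = 0.0925 and 0.229). Ppbp had 6.85, 7.08 and 7.34 in knockout cells, against 6.78, 9.44 and 9.87 in wild-type cells, so p65 WT replicate 1 lay below every knockout value. With all arrays 8 of the 10 erythroid and 2 of the 6 megakaryocyte markers had a log2 fold change above 0. Alas2 was lower (-0.53) and Pf4 higher (0.37) in knockout cells, each without overlap. Tfrc, Ppbp, Cd68 and Cd3d are named because they were the markers of the erythroid, megakaryocyte and mature cell lists that passed in that fit, a choice made after their values were seen.

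Mature cells were read in the same way, beside the same shares of all genes. Of 13 mature lymphocyte markers none passed limma (0 higher and 5 lower unadjusted), with means of 4.93 to 5.04 on knockout and 5.11 to 5.45 on wild-type arrays, and 5 of them, Cd3g, Ms4a1, Klrb1c, Ncr1 and Gzma, had a mean over all 6 arrays at or below the floor of 4.12. The wild-type means of Cd3g and Klrb1c, 4.28 and 4.27, lay above it. This floor is the highest mean of the 3 measured Y-linked genes on arrays where Xist lay between 10.1 and 10.8. Of 18 mature macrophage and granulocyte markers none passed (1 higher and 2 lower unadjusted), with means of 5.43 to 5.48 on knockout and 5.33 to 5.74 on wild-type arrays. By mean signal, 5 lymphocyte markers lay in the middle tertile of all genes and 1 in the brightest, and 8 and 2 of the macrophage and granulocyte markers did. In the fit without p65 WT replicate 1, Cd68, a macrophage lysosomal gene, rose (1.05, adjusted p = 0.0427) and Cd3d, a T cell receptor subunit gene, fell (-0.55, adjusted p = 0.0492). Among 14 genes of the sort and of stem cells, Hlf, a stem cell transcription factor gene, fell to 8.31, 8.93 and 8.30 in knockout cells, against 9.47, 9.90 and 9.98 in wild-type cells (log2 fold change -1.27, adjusted p = 0.0485), and 13 did not pass. At an unadjusted limma p under 0.05, 0 of the 14 were higher and 6 lower, where 7.76% of all genes were lower. In 7 every knockout value lay below every wild-type value, against 15.4% of all genes. Of the 14, 8 lay in the brightest tertile of all genes and 6 in the middle one, each of 6646 genes. In these tertiles 97 and 715 genes were lower at that unadjusted p. Every knockout value lay below every wild-type value in 142 and 1406. After cyclic loess normalization 5 of the 14 fell, where 0.492% of all genes were called lower. In that fit 0 of the 14 had a log2 fold change above 0. When p65 WT replicate 1 was left out, 8 of the 14 fell, Kit among them, where 1.38% of all genes were called lower. Kit, the sort antigen, had 10.02, 10.18 and 10.17 in knockout cells, against 10.08, 10.58 and 10.63 in wild-type cells, where p65 WT replicate 1 alone lay within the knockout range. Its log2 fold change was -0.30 with all arrays (adjusted p = 0.327) and -0.48 without that array (adjusted p = 0.04999). Flt3, the Flk2 gene, had 7.68, 7.94 and 7.39 in knockout cells, against 7.31, 7.45 and 8.08 in wild-type cells, with overlap. The Sca-1 gene was not analysed here.

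**Figure D5:**
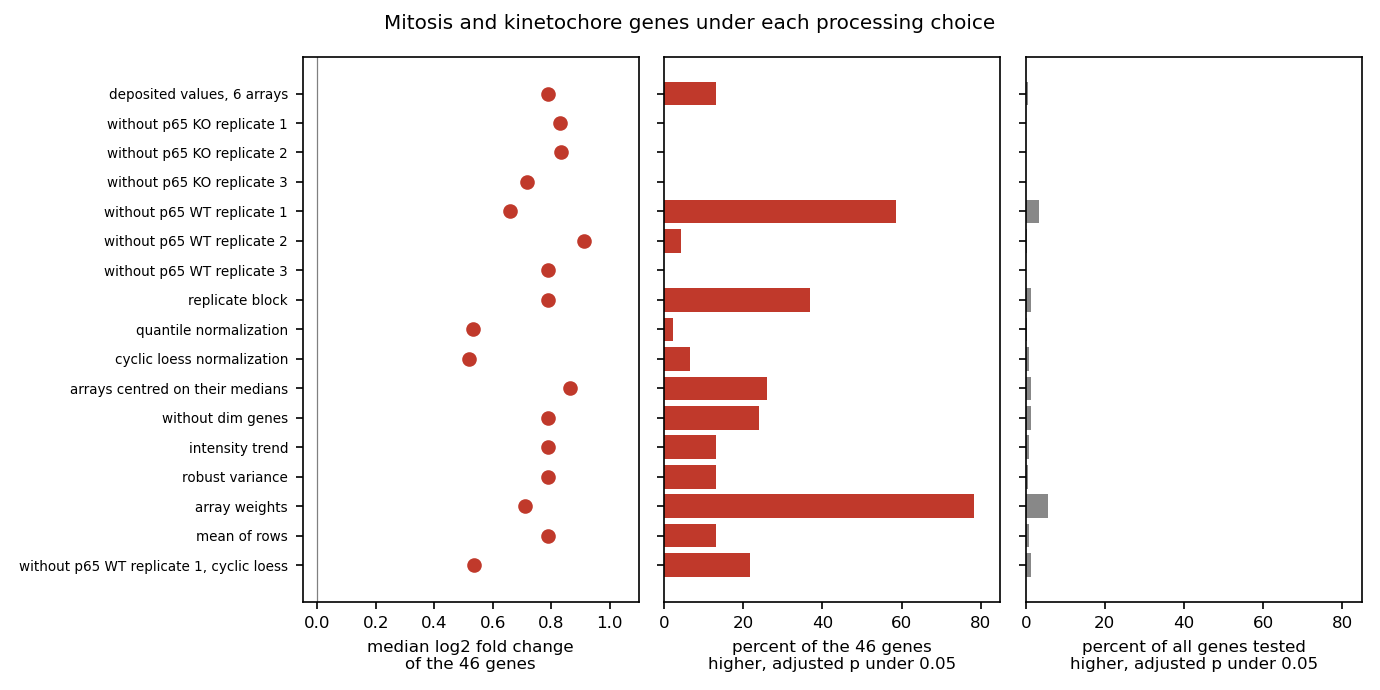
For the deposited values and each of the 16 alternatives: the median log2 fold change of the 46 genes (left), the percent of them called higher (middle) and the percent of all genes called higher (right, same scale). The median stays between 0.52 and 0.91, while the number called runs from 0 to 36 of 46.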

How the data were processed

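Arrays were made from sorted bone marrow cells of p65 knockout and p65 wild-type mice, 3 arrays for each genotype. Per the labels' protocols, RNA was amplified with a NuGEN Ovation Pico kit. The authors deposited log2 expression values, with RMA, Partek and Affymetrix Expression Console named in the submitters' processing notes. The design text names an exon array, while the row IDs matched the annotation of a different platform, Mouse Gene 1.0 ST. Of 35557 rows, 21789 had 1 gene symbol, 1621 several and 12147 none listed. The brightest row was kept for 999 genes with several, which left 19938 genes. A linear model of genotype alone was fitted to every gene with limma 3.58.1 under R 4.3.3, leaving 4 residual degrees of freedom. Calls were made at a Benjamini-Hochberg adjusted p under 0.05, taken across the whole table. No filter on low values was used, and all 46 measured genes lay above the floor of Y-linked signal. The number of arrays limits the precision.

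The members, lists and tests were chosen with earlier results of these data known. Values are given for genes that passed with all arrays or without p65 WT replicate 1, and for the largest and smallest change of each role. Of the lists of further mitosis and of DNA replication genes, at most 10 that passed are named, by smallest p. Deviations of same-numbered arrays, by the number in the titles, correlated at r = 0.368, 0.119 and 0.162. As all were above 0.1, the number was also fitted as a block. Arrays of different number reached 0.195 (p65 KO replicate 3 with p65 WT replicate 2) and 0.183 (p65 KO replicate 2 with p65 WT replicate 3), so only the first pair stood apart, and the labels do not say what a number marks. The fit was first tested on simulated data with known changes, in 5 runs with 200 changed genes each. It recovered 55.2% of the changes of 1 and 94.8% of the changes of 2 on the log2 scale, with 0.4 false calls on average. The simulated noise was independent between genes and held no shift that follows signal level. The runs therefore cannot show how many false calls such a shift makes in the real arrays.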

Additional observations from a re-analysis of the deposited data

How the results depend on the processing

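All 46 mitotic genes kept a positive log2 fold change under all 16 alternatives, and the counts moved. With the replicate block, without dim genes, with intensity trend and with robust variance, fold changes equal those of the fit with all arrays by construction. Their median was 0.79 in each, so these fits are no separate check of the sign. The mean of rows changes only genes with several rows, and centring on medians shifts all genes alike. Leaving out 1 array in turn gave 0 to 27 mitotic genes, 0 to 29 further mitosis genes, 0 to 9 DNA replication genes and 21 to 929 of all genes. The highest of each came without p65 WT replicate 1. With all arrays these counts were 6, 11, 1 and 163, all but 26 of the last higher. In the same order, the replicate block gave 17, 20, 3 and 372, arrays centred on their medians 12, 17, 5 and 314, fits without dim genes 11, 17, 4 and 273, and array weights 36, 41, 15 and 1599. Quantile normalization gave 1 mitotic and 6 further mitosis genes, cyclic loess 3 mitotic genes and 252 of all genes, and the mean of rows 2 DNA replication genes. Leaving out p65 WT replicate 1 with cyclic loess, chosen after seeing the data, gave 10, 17, 2 and 423. The median log2 fold change of the 46 was 0.53 after quantile normalization, 0.52 after cyclic loess and 0.54 in that combined fit. Intensity trend, robust variance and the mean of rows each gave 6 mitotic genes, with 172, 152 and 167 of all genes. The cause was not tested. With 3 arrays per genotype, a gene that did not pass is not shown to be equal.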
